A study of Mus musculus with 5 samples.

Results

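Expression of 9 genes of cytokine signalling was followed in the tumour-bearing brain hemisphere of mice with GL261 glioma: the transcription factors Stat2, Stat3, Stat4, Stat5a, Stat5b and Stat6, the feedback inhibitors Socs1 and Socs3, and the transcription factor Irf1. The genes were chosen by name, matched by mouse symbol to the identifiers of the count tables, and all 9 were among the 23592 genes that passed the filter on low counts, out of 55573 genes listed. Bulk RNA-seq of the right hemisphere was read as CPM (reads of a gene for every 1000000 reads of the library, after trimmed-mean scaling) in 3 vehicle libraries and 2 UMBO libraries.

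All mice were C57BL/6 females, 7 to 8 weeks old when GL261 cells, a mouse glioma line here carrying luciferase and the fluorescent protein mKate2, were placed in the right caudate-putamen. The vehicle mice received an antibody dilution buffer. The UMBO mice received ultrasound-mediated opening of the blood-brain barrier, in which low-intensity pulsed ultrasound acts on circulating microbubbles, and both groups were treated on days 21 and 24, with brains taken 24 h after the last session. No sham-sonicated library was analysed here, so ultrasound, microbubbles and handling cannot be told apart. Each library is 1 mouse, the tumour is 1 cell line, and in a whole hemisphere fewer cells of a type and less RNA per cell cannot be told apart.

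Cytokine receptors carry JAK kinases, which phosphorylate STAT proteins, and the phosphorylated STATs pair, enter the nucleus and switch on genes. Among the first genes switched on are Socs1 and Socs3, whose proteins block the receptors and kinases and so close a feedback loop, and Irf1, which carries the interferon-gamma signal on to antigen presentation genes. In the brain these proteins act in microglia, astrocytes, invading leukocytes and tumour cells alike, and STAT activity is set largely by phosphorylation, which RNA levels do not show.

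For 5 of the 9 members the promoter windows carried a match to either of the 2 DNA elements through which these factors read the genome. The stretches are shown because Socs1, Socs3 and Irf1 are textbook targets of STAT factors. RefSeq start-site windows (GRCm38.p6, from 250 bases before to 50 after each start) were found for 9 of 9 members and searched on both strands for the STAT palindrome TTCNNNGAA and for the interferon-response element, GAAA and GAAA parted by any 2 bases. The 9 members had 13 windows between them, so a share of windows is not a share of genes. The palindrome was present in the windows of Irf1 and Socs3, and in 8.30% of all 32851 windows. The interferon-response element was present for Socs1, Stat2 and Stat4, and in 3.44% of all windows. Neither element was found for Stat3, Stat5a, Stat5b or Stat6, and the window of Socs1 held no palindrome. Capitals mark the matched letters, 5′ to 3′ on the strand of the gene, and in Socs1 a pair of overlapping matches form 1 run. Each printed stretch ends before the RefSeq start of its window.
Irf1, chr11:53769894-53769962, plus strand: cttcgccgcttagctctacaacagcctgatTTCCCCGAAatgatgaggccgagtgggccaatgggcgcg
Socs3, chr11:117969482-117969550, minus strand: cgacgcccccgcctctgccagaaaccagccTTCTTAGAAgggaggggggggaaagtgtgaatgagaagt
Socs1, chr16:10785574-10785649, minus strand: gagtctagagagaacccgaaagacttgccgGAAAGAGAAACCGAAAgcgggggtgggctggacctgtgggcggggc
Stat2, chr10:128270248-128270315, plus strand: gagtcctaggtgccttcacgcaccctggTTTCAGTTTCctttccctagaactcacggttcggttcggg
Stat4, chr1:52008113-52008182, plus strand: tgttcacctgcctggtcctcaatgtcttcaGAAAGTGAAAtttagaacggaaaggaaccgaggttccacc

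The match in Irf1 began 90 bases before the start, that in Socs3 154 bases before it, and the first match in Socs1 83 bases before it. In Stat2 the element lay on the opposite strand, 222 bases before the start. The Stat4 match belongs to the more downstream of its windows and lies inside the annotated span of its gene. The Socs3 match also lies inside the annotated span of its gene, upstream of this RefSeq start but not of the whole gene. For the matched windows of Stat4, Stat2 and Socs3 the bases just after the start were not found in a GENCODE transcript of the gene. A match is a run of letters and not evidence of binding. Among all tested genes with a window, the median log2 fold change (UMBO over vehicle) was -0.0027 for the 1191 genes with the palindrome and -0.01 for those without it. The median was 0.17 for the 538 genes with the interferon-response element and -0.02 for those without it.

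The libraries held 59736771 to 86164159 counted reads, and all members but Stat4 had more than 100 reads in every library. The share of mitochondrial reads was 5.29% to 6.61% in 4 libraries and 3.36% in UMBO replicate 2. Marker genes placed these libraries as brain, with neuronal markers summing to 5240 to 8070 CPM in the vehicle libraries and to 5460 and 2600 CPM in UMBO replicates 1 and 2.

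Across the 9 members, 8 had a positive log2 fold change, but none passed the test. By edgeR's quasi-likelihood test with Benjamini-Hochberg adjustment 0 of 9 members passed an adjusted p of 0.05, as did 0 of all tested genes (0.0%). At an unadjusted p under 0.05 the count was 0 of 9, against 7.37% of all genes. DESeq2 was run without the filter on low counts, on 40434 genes. It counted 0 members at its adjusted p (0.0989% of those genes) and 1, Socs3, at the unadjusted one (6.77% of those genes). The median log2 fold change was 0.77 over the members and 0.01 over all genes tested, and 50.9% of all genes had a positive value. For 7 of 9 members it was above 0.5, as for 23.8% of all genes. UMBO replicate 2 was the highest of the 5 libraries for 8 of 9 members, against 40.4% of all genes, and without that library the members' median was 0.02.

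**Figure D1:**
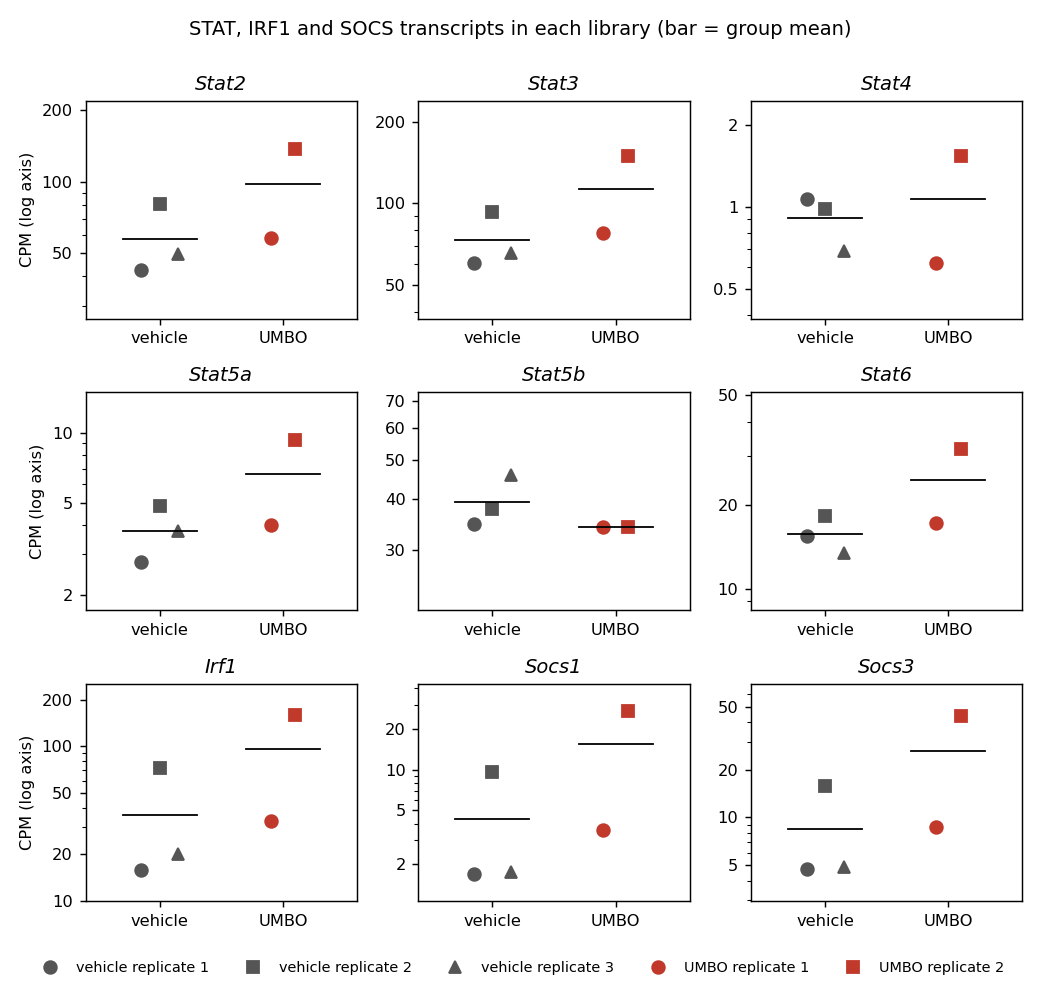
CPM of the 9 members in the 3 vehicle and 2 UMBO libraries, with points for libraries and bars for the group mean. UMBO replicate 2 is the highest point for every gene except Stat5b, and UMBO replicate 1 lies among the vehicle points for 7 of 9 genes.

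Stat3 (chr11:100885098-100939540, minus strand, GRCm38) relays the signals of the interleukin-6 family and is a factor of reactive astrocytes and of glioma cells. Its level was 60.4, 93.3 and 65.8 CPM in vehicle replicates 1 to 3 and 77.8 and 149 CPM in UMBO replicates 1 and 2. UMBO replicate 1 lay inside the vehicle range and UMBO replicate 2 above it, so that the groups overlapped. The vehicle mean was 73.2 ± 17.6 CPM (SD, n = 3) and the UMBO mean 113 ± 50.5 CPM (SD, n = 2). The log2 fold change was 0.63 (SE 0.34, 95% interval -0.19 to 1.46), and edgeR's quasi-likelihood test gave an adjusted p of 0.497.

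Stat2 (chr10:128270559-128292849, plus strand) relays type I interferon signals and forms, with Irf9, part of the complex that binds interferon-response elements. The 3 vehicle libraries read 42.5, 80.4 and 49.5 CPM, and the UMBO libraries 58.3 and 137 CPM. Vehicle replicate 2 stood above UMBO replicate 1, and UMBO replicate 2 stood above all others. The log2 fold change of Stat2 was 0.77 (SE 0.43, 95% interval -0.30 to 1.83), with an adjusted p of 0.497 by edgeR.

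Stat6 (chr10:127642986-127660957, plus strand) carries the signals of interleukin-4 and interleukin-13. It was read at 15.5, 18.2 and 13.4 CPM with vehicle and at 17.3 and 31.9 CPM with UMBO. The order was close to that of Stat2 and Stat3, with vehicle replicate 2 above UMBO replicate 1. Its log2 fold change of 0.65 (SE 0.30, 95% interval -0.08 to 1.38) had the smallest unadjusted p of the members, 0.0735, and an adjusted p of 0.497 by edgeR.

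Stat5a (chr11:100859351-100885169, plus strand) and Stat5b (chr11:100780731-100850724, minus strand) are close paralogs that answer to growth hormone, prolactin and the common gamma chain cytokines, and they lie 8626 bases apart. Stat5a was read at 2.77, 4.84 and 3.78 CPM with vehicle and at 4.0 and 9.33 CPM with UMBO. Stat5b was read at 34.7, 37.9 and 45.9 CPM with vehicle and at 34.3 and 34.2 CPM with UMBO. The paralogs differed in their pattern: Stat5a was highest in UMBO replicate 2, whereas Stat5b was nearly equal in the UMBO libraries. Stat5b was the 1 member whose groups did not overlap, with both UMBO libraries below every vehicle library, and 11.4% of all genes did the same. With scaling to library size alone the Stat5b groups did overlap. The log2 fold change was 0.81 (SE 0.44) for Stat5a and -0.20 (SE 0.18, 95% interval -0.65 to 0.24) for Stat5b, with adjusted p of 0.497 and 0.568 by edgeR. How reads that match both of these similar genes were counted is not stated, and Stat5a also shares 72 exon bases with Stat3 on the opposite strand.

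The share of Stat5a in the reads of the pair was 7.39%, 11.3% and 7.6% with vehicle and 10.4% and 21.4% with UMBO. On the log2 scale the ratio of Stat5a to Stat5b reads averaged -3.41 ± 0.38 (SD) in the 3 vehicle libraries and -2.49 ± 0.87 (SD) in the 2 UMBO libraries. The share in UMBO replicate 1 was below that of vehicle replicate 2. The difference of 0.92 had p = 0.3 in an exact two-sided permutation test, which cannot go below 0.1 with 3 against 2 libraries, and 0.4 after adjustment over the 3 ratios examined.

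Stat4 (chr1:51987148-52107189, plus strand) is the factor of interleukin-12 signalling in T and NK cells. It was the lowest of the members, at 1.07, 0.979 and 0.685 CPM with vehicle and 0.620 and 1.53 CPM with UMBO. These values rest on 80, 66 and 58 reads and on 53 and 100 reads. UMBO replicate 1 was the lowest library and UMBO replicate 2 the highest, with all vehicle libraries between them. The log2 fold change was 0.23 (SE 0.48), adjusted p 0.802 by edgeR, and without UMBO replicate 2 it was -0.55. Markers of T and NK cells, 11 of 12 with a positive log2 fold change, took the same end positions, summing to 21.9, 41.1 and 23.8 CPM with vehicle and to 17.2 and 66.4 CPM with UMBO, and their part in the Stat4 values was not tested. Of the exon bases of Stat4, 26.7% are shared with Gm28177 on the same strand, which itself had 0 to 5 reads.

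Irf1 (chr11:53770014-53778374, plus strand) is switched on by interferon-gamma and drives genes of antigen presentation. It was read at 15.9, 72.3 and 20.2 CPM with vehicle and at 32.9 and 159 CPM with UMBO. UMBO replicate 1 lay below vehicle replicate 2, and the highest vehicle library was 4.55-fold over the lowest. The UMBO libraries differed 4.84-fold from each other. The group means were 36.1 ± 31.4 (SD, n = 3) and 96.2 ± 89.5 (SD, n = 2), and the log2 fold change was 1.41 (SE 0.86, 95% interval -0.69 to 3.52), adjusted p 0.497 by edgeR. Without UMBO replicate 2 the log2 fold change of Irf1 was -0.14, and without vehicle replicate 2 it was 2.45.

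Socs1 (chr16:10782240-10785536, minus strand) encodes the inhibitor that holds interferon signalling in check. Its level was 1.70, 9.61 and 1.75 CPM with vehicle and 3.6 and 27.1 CPM with UMBO. It was the most variable of the members, with a 5.66-fold span among vehicle libraries and a 7.53-fold span between the UMBO libraries, whereas the median gene with a mean above 1 CPM spanned 1.32-fold among vehicle libraries. Vehicle replicate 2 exceeded UMBO replicate 1. The log2 fold change was 1.82 (SE 1.07, 95% interval -0.79 to 4.43), adjusted p 0.497 by edgeR. It was -0.27 without UMBO replicate 2 and 3.20 without vehicle replicate 2.

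Socs3 (chr11:117966079-117970047, minus strand) encodes the inhibitor of interleukin-6 family receptors and is itself a target of Stat3. It was read at 4.73, 15.7 and 4.84 CPM with vehicle and at 8.74 and 43.7 CPM with UMBO. The order of the libraries was that of Socs1 and Irf1. The group means were 8.41 ± 6.27 (SD, n = 3) and 26.2 ± 24.7 (SD, n = 2), and the log2 fold change was 1.64 (SE 0.80, 95% interval -0.33 to 3.61), adjusted p 0.497 by edgeR. The log2 fold change of Socs3 was 0.06 without UMBO replicate 2 and 2.49 without vehicle replicate 2.

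**Figure D2:**
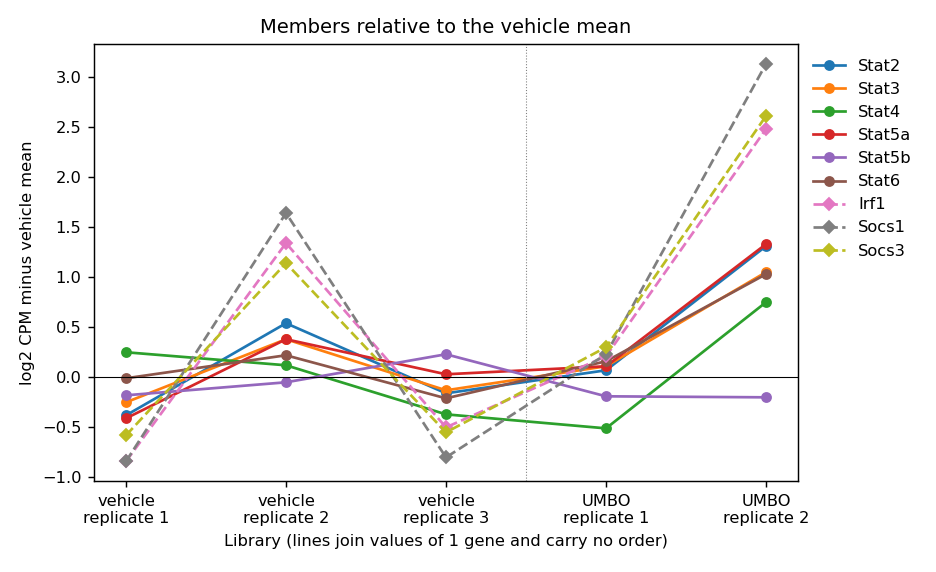
Log2 CPM of each member relative to its vehicle mean, by library. In UMBO replicate 2 the values run from -0.20 for Stat5b to 3.13 for Socs1, and in UMBO replicate 1 from -0.51 for Stat4 to 0.30 for Socs3.

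The members had much of their order of libraries in common. Stat2, Stat3, Stat5a, Socs1, Socs3 and Irf1 increased in the order vehicle replicate 1, vehicle replicate 3, UMBO replicate 1, vehicle replicate 2 and UMBO replicate 2. UMBO replicate 2 came first and vehicle replicate 2 second for 7 of 9 members, and for 24.5% of all genes. In no member did the 2 UMBO values both exceed the highest vehicle value, as they did in 11.5% of all genes. Set against vehicle replicate 2 alone, UMBO replicate 2 was 2.82-fold higher for Socs1, 2.79-fold for Socs3, 2.21-fold for Irf1 and 1.6-fold for Stat3.

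**Figure D3:**
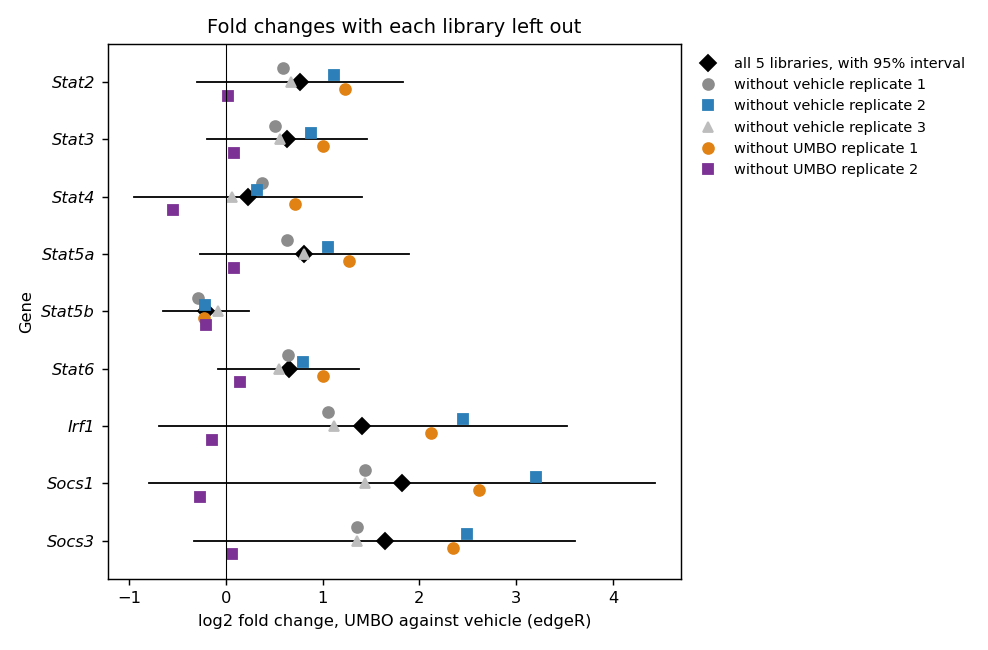
Log2 fold change of each member with all 5 libraries (diamonds, lines for the 95% interval) and after leaving out each of the libraries. The members' median runs from 0.02 without UMBO replicate 2 to 1.23 without UMBO replicate 1, and Stat4, Socs1 and Irf1 lie below 0 without UMBO replicate 2, as Stat5b does throughout.

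Several marker lists moved with the same libraries. All 10 markers of monocytes and macrophages had a positive log2 fold change, and they summed to 47.7, 143 and 75.5 CPM with vehicle and to 147 and 554 CPM with UMBO. The 10 markers of proliferating cells, all positive, summed to 46.5, 103 and 33.6 CPM and to 108 and 447 CPM. Both lists were highest in UMBO replicate 2, with UMBO replicate 1 and vehicle replicate 2 close together behind it. Vehicle replicate 2 came second for 5 of the 10 monocyte and macrophage markers and for 4 of the 10 proliferation markers. Microglial markers, 6 of 8 positive, were higher in both UMBO libraries, at 286, 426 and 353 CPM with vehicle and 549 and 662 CPM with UMBO. All 8 neuronal markers had a negative log2 fold change, and their sum was lowest in UMBO replicate 2. The part of cell makeup in the levels of the members was not tested.

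Compared per length, as CPM per kilobase of summed exons (RPKM), the members ranged over more than an order of magnitude. The vehicle levels were 9.70 ± 3.41 RPKM for Stat2, 9.09 ± 7.89 for Irf1, 7.68 ± 1.85 for Stat3 and 7.13 ± 1.05 for Stat5b (SD, n = 3), neighbours that did not differ beyond their spread. Stat6 followed at 3.56 ± 0.54 RPKM, below Stat5b by more than the spread, then Socs3 at 2.91 ± 2.17 and Socs1 at 1.5 ± 1.57, whose spreads between mice overlapped. Within every library Socs3 was above Socs1, as at 1.64 against 0.584 RPKM in vehicle replicate 1. Stat2 was likewise above Stat3 in every library by summed exons, but not by the longest transcript in vehicle replicate 1 (9.67 against 9.99 RPKM). Stat5a at 0.532 ± 0.145 RPKM and Stat4 at 0.235 ± 0.0519 RPKM closed the order. In the UMBO libraries Irf1 was highest at 24.2 ± 22.5 RPKM (SD, n = 2), and Socs3, at 9.06 ± 8.54, stood above Stat5b, at 6.19 ± 0.00841, but neither order held in UMBO replicate 1. There Irf1 was at 8.28 RPKM against 9.83 for Stat2, and Socs3 at 3.02 RPKM against 6.19 for Stat5b. With the longest transcript as the length, Irf1 was first with vehicle too, and 7 of 9 members kept their rank.

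The feedback genes were set against the factors beside them as log2 ratios of reads. Socs3 to Stat3 was -3.67, -2.58 and -3.77 with vehicle and -3.15 and -1.77 with UMBO. The ratio was again highest in UMBO replicate 2 with vehicle replicate 2 next. The difference of the group means was 0.87, with an exact permutation p of 0.3 and 0.4 after adjustment, and it was 0.18 without UMBO replicate 2 and 1.57 without UMBO replicate 1. Socs1 to Irf1 was -3.23, -2.91 and -3.53 with vehicle and -3.19 and -2.56 with UMBO, a narrower span, with a difference of 0.35 and an exact permutation p of 0.4.

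**Figure D4:**
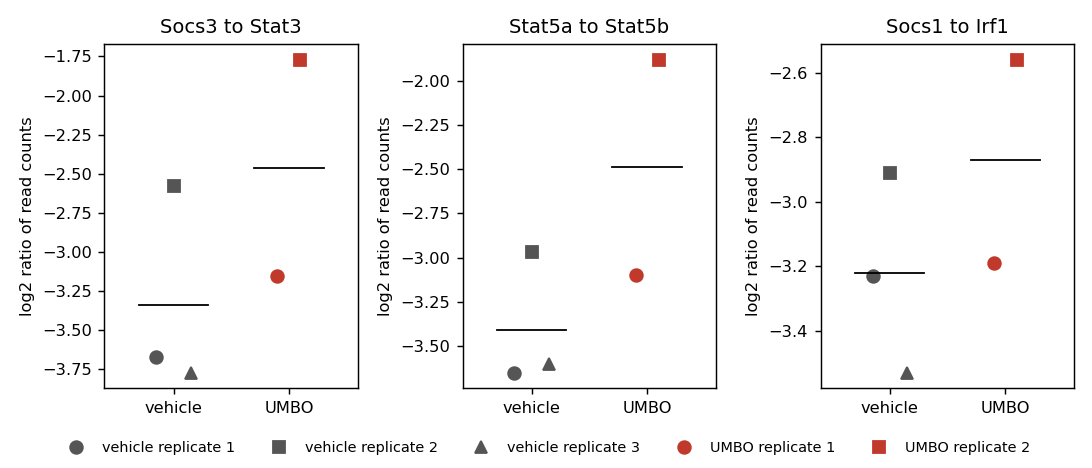
Log2 ratios of Socs3 to Stat3, Stat5a to Stat5b and Socs1 to Irf1 reads, with points for libraries and bars for the group mean. In each ratio UMBO replicate 2 is highest and UMBO replicate 1 lies among the vehicle libraries.

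The genes with the most similar levels were found by the root-mean-square difference of log2 CPM, centred on each gene's own mean, over the 5 libraries. For Socs1 the nearest was Psmb8, an immunoproteasome subunit, at 0.0690, followed by Ifi47 and Batf2, and 23 genes lay within 0.2. For Irf1 it was H2-T23, a non-classical class I molecule, at 0.0742, and 65 genes lay within 0.2. Socs3 was nearest to Gm37519 and Sp110, with 109 genes within that distance. Of the 27 genes nearest to the 9 members, 4 were also among the nearest 3 by correlation, and none of those of Socs1, Socs3 and Irf1 was. The STAT genes had much larger neighbourhoods, with 875 genes for Stat2, 1769 for Stat3 and 3235 for Stat5b, apart from Stat4 with 126. The difference was not scaled to the variation of each gene, so these counts depend on how much a gene varied and do not mark a trait of STAT genes. Among the members themselves Stat2 and Stat5a were the closest pair, at 0.112, and Stat5b and Socs1 the most distant, at 1.6.

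Genes of the pathway that lie upstream and downstream were read from 10 lists, which hold 134 genes of which 123 were tested. Of these, 22 were higher with UMBO at an unadjusted p under 0.05 and 0 were lower, where 5.30% and 2.06% of all genes were higher and lower. By edgeR none passed the adjusted p. DESeq2 counted 32 at the unadjusted and 2 at the adjusted one, where 6.77% and 0.0989% of the 40434 genes it tested passed. The 2 were Gfap and Osm, with DESeq2 adjusted p of 0.00402 and 0.0421. The DESeq2 shares include genes with few reads that the filter before edgeR removed, so the shares of the 2 tests are over different sets of genes. The count of 22 was 5 after leaving out vehicle replicate 1, vehicle replicate 3 or UMBO replicate 2, and it became 52 when vehicle replicate 2 was dropped and 72 when UMBO replicate 1 was. The share of all genes at that p moved as well, to 1.28%, 1.88% and 1.86% in the first 3 of these fits and to 11.6% and 41.0% in the others.

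Of the 4 JAK kinases, Jak3, which serves the common gamma chain, was read at 6.86, 10.1 and 9.19 CPM with vehicle and at 11.7 and 16.2 CPM with UMBO. The groups did not overlap, and the log2 fold change was 0.67 (SE 0.27, unadjusted p 0.0448 and adjusted p 0.497 by edgeR). Jak1 was lowest in UMBO replicate 2, at 91.1 CPM against 134 to 195 CPM with vehicle, while UMBO replicate 1, at 161 CPM, lay inside the vehicle range.

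Of 20 cytokines tested out of 29 listed, 19 had a positive log2 fold change, against 50.9% of all genes. By edgeR 5 were higher at an unadjusted p under 0.05, against 5.30% of all genes. The median log2 fold change of the cytokines was 0.91, and 0.09 without UMBO replicate 2. Osm, the interleukin-6 family cytokine oncostatin M, was read at 0.214, 0.401 and 0.224 CPM with vehicle and at 0.737 and 3.10 CPM with UMBO. Both UMBO libraries exceeded every vehicle library, with a log2 fold change of 2.77 (SE 0.68, unadjusted p 0.00637) that was 1.40 without UMBO replicate 2. Il6 was at 0.0267, 0.237 and 0.130 CPM with vehicle and at 0.222 and 2.24 CPM with UMBO, and here the groups overlapped. Of 34 receptors tested, 24 were positive and 7 were higher at an unadjusted p under 0.05 by edgeR, against 5.30% of all genes. Among the 7 were Osmr, the oncostatin M receptor, Il6ra and Csf3r. The median of the receptors was 0.63, and 0.14 without UMBO replicate 2. Osmr was read at 5.38, 8.66 and 7.16 CPM with vehicle and at 11.1 and 21.5 CPM with UMBO, without overlap.

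Of 14 Stat3 targets, 12 had a positive log2 fold change, against 50.9% of all genes, and the median of the list was 1.73. By edgeR 6 were higher at an unadjusted p under 0.05, against 5.30% of all genes. Gfap, the intermediate filament of astrocytes, was read at 214, 515 and 388 CPM with vehicle and at 1400 and 1640 CPM with UMBO. Unlike Stat3 and Socs3, it was high in both UMBO libraries, and its log2 fold change was 2.03 with all libraries and 1.91 without UMBO replicate 2. Serpina3n, a secreted protease inhibitor, was at 23.9, 73.8 and 28.9 CPM with vehicle and at 116 and 215 CPM with UMBO. Gfap and Serpina3n belong to the 4 of 14 targets whose UMBO values both exceeded the highest vehicle value, as in 11.5% of all genes. In 8 of 14 UMBO replicate 2 came first and vehicle replicate 2 second, as in 24.5% of all genes. Of the 14 targets, 6 are also markers of reactive astrocytes, a list that summed to 334, 902 and 532 CPM with vehicle and to 1850 and 2980 CPM with UMBO, and the part of astrocyte number was not tested.

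The order of the members was also that of the 12 targets of Irf1 and interferon-gamma at its upper end. All 12 had a positive log2 fold change, with a median of 1.18. But in all 12 UMBO replicate 2 came first and vehicle replicate 2 second, against 24.5% of all genes. In none did both UMBO libraries exceed every vehicle library, against 11.5% of all genes. None of the 12 had an unadjusted p under 0.05 by edgeR or by DESeq2. Without vehicle replicate 2, 9 of the 12 did by edgeR, where 11.6% of all genes did. Psmb8 was read at 13.8, 82.0 and 16.0 CPM with vehicle and at 32.9 and 226 CPM with UMBO. Nlrc5, the activator of class I genes, followed the same order at 11.8, 41.8 and 18.0 CPM and at 23.8 and 87.7 CPM. Without UMBO replicate 2 the median of these 12 was -0.19, whereas that of the Stat3 targets was 0.38. The difference between the lists was not tested.

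Of 8 targets of Stat6 tested, 7 had a positive log2 fold change, against 50.9% of all genes. For 2 of them both UMBO values were above all vehicle values, against 11.5% of all genes. In 5 UMBO replicate 2 came first and vehicle replicate 2 second, against 24.5% of all genes. The median of the 8 targets was 1.36, and 0.15 without UMBO replicate 2. Chil3, a chitinase-like protein of alternatively activated macrophages, was read at 0.147, 1.78 and 0.201 CPM with vehicle and at 3.39 and 9.36 CPM with UMBO. Alox15, a lipoxygenase, was at 0.0535, 0.193 and 0.0709 CPM and at 0.339 and 0.672 CPM. These are the 2 targets without overlap, with unadjusted p of 0.0302 and 0.0135 by edgeR. For the Stat4 and Th1 list 6 of 7 genes were positive, with a median of 0.63 that was -0.25 without UMBO replicate 2. In 5 of the 7 UMBO replicate 2 came first and vehicle replicate 2 second (24.5% of all genes). The Stat5 targets had a median of 0.15, and of 0.04 without UMBO replicate 2.

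Of 16 other inhibitors of the pathway, 9 had a positive log2 fold change. Ptpn6, a phosphatase of blood cells, was read at 6.77, 18.9 and 8.59 CPM with vehicle and at 17.2 and 50.5 CPM with UMBO, with a log2 fold change of 1.57 (SE 0.59, unadjusted p 0.0386) that was 0.59 without UMBO replicate 2. Socs5, another member of the Socs family, had the opposite direction to Socs1 and Socs3. It was at 129, 105 and 118 CPM with vehicle and at 96.8 and 60.8 CPM with UMBO, with a log2 fold change of -0.57 (SE 0.25, unadjusted p 0.0643) that was -0.27 without UMBO replicate 2. All 8 other IRF factors were positive, with a median of 0.91 that was 0.33 without UMBO replicate 2. For 7 of them UMBO replicate 2 came first and vehicle replicate 2 second, as for 24.5% of all genes.

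**Figure D5:**
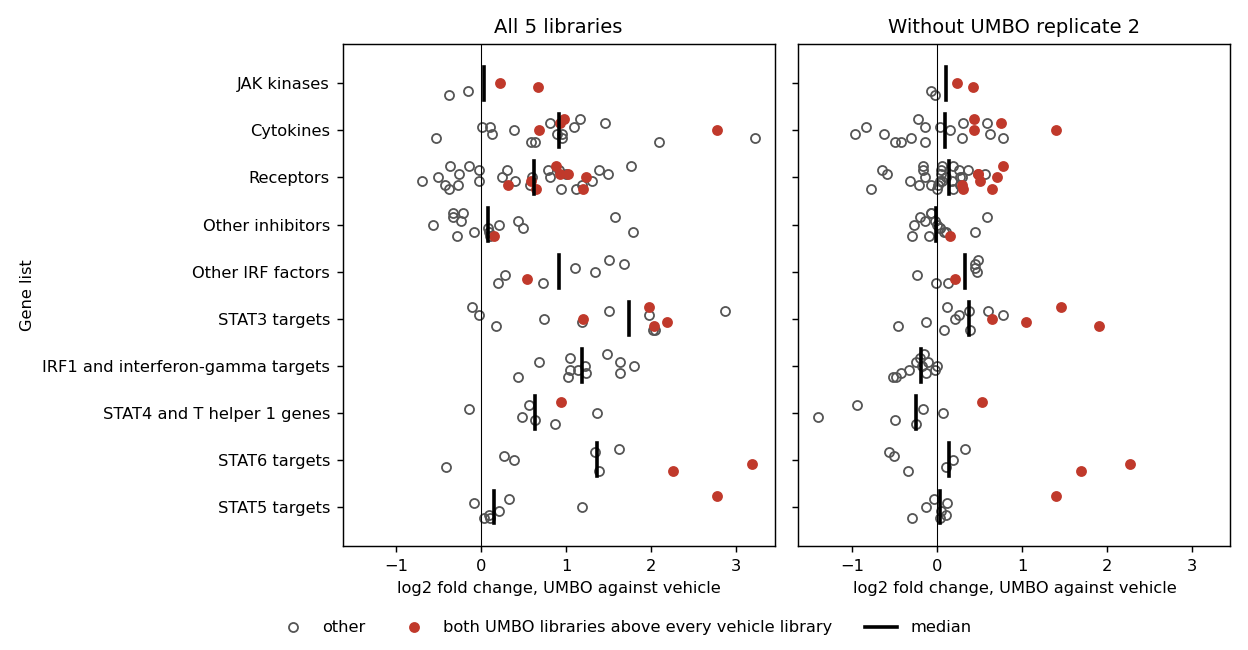
Log2 fold change of the genes in the 10 pathway lists with all libraries and without UMBO replicate 2, where points are genes, vertical bars are list medians and filled points are genes whose UMBO values both exceeded the highest vehicle value, with all 5 libraries in use. The median of the Irf1 and interferon-gamma targets moves from 1.18 to -0.19 and that of the Stat3 targets from 1.73 to 0.38.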

How the data were processed

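Whole-hemisphere RNA was measured in 3 vehicle and 2 UMBO mice. The study's methods describe groups of equal size, and no further UMBO library was analysed here. The deposited files hold raw read counts per Ensembl gene, which the authors took from STAR 2.7.2a after alignment to GRCm38, and the submitters' processing notes also name DESeq2. The strand setting and annotation release are not given in the sources used here. Of 55573 identifiers, 55480 were matched to a symbol with GENCODE M21. Counts were scaled by edgeR's trimmed mean (TMM), filtered with filterByExpr and tested with edgeR's quasi-likelihood test (edgeR 4.0.16, limma 3.58.1, R 4.3.3) with Benjamini-Hochberg adjustment over all 23592 genes. CPM was computed on the scaled library sizes. DESeq2 1.42.0, run without this filter and giving a p-value for 40434 genes, was an alternative. The p-values measure the spread between mice. On simulated counts with the dispersions of these libraries, 38 of 100 genes raised 4-fold and 23 of 100 lowered 4-fold were called, with 3 false calls.

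The members and lists were chosen with earlier results of these data known. Genes named were taken from the members, the 3 genes nearest each in level, the JAK kinases, and the 3 genes of each pathway list with the smallest p, and some of these are not reported here. No pair of libraries agreed within sampling noise. Alternatives covered scaling, the filter, DESeq2, the replicate number as a block, and leaving out each library. Leaving out both second replicates, and the longest transcript as length, were chosen after seeing the data.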

Additional observations from a re-analysis of the deposited data

How the results depend on the processing

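No member passed the adjusted p of 0.05 under either other scaling, another filter or DESeq2, and no member changed direction under these, although Stat4 did not pass the stricter filter. Scaling to library size alone moved the median of all genes by 0.11 on the log2 scale. By DESeq2, 40 of 40434 genes passed the adjusted p, and 2738 genes and 1 member had an unadjusted p under 0.05. With no filter on low counts 4100 genes (10.1%), 4 members and 46 pathway genes had an unadjusted p under 0.05.

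The replicate numbers are not stated to mark pairs, only 2 are shared by the groups, and same-numbered libraries had correlations of their deviations of 0.453 and 0.760. The deviations were taken from the group mean, so those of the 2 UMBO libraries are equal and opposite. The 2 correlations are therefore not independent and cannot show whether the numbers mark pairs. With the replicate number as a block, 2337 genes (9.91%) passed the adjusted p, 3 members among them (Socs1, Socs3 and Irf1, with log2 fold changes of 1.30, 1.19 and 1.10). In that blocked fit 6134 genes (26.0%), 7 members and 64 pathway genes had an unadjusted p under 0.05, 11 of the 12 Irf1 and interferon-gamma targets did, and Stat4 was at -0.06.

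Leaving out 1 library moved the genes past the adjusted p between 0 and 4543, the members past it between 0 and 4, and the genes at an unadjusted p under 0.05 between 296 and 10165. The members at an unadjusted p under 0.05 ranged from 0 to 7, the members whose remaining UMBO values all exceeded the vehicle values from 0 to 8 (8 with UMBO replicate 2 as the single UMBO library, where 42.2% of all genes did so), the median of the members from 0.02 to 1.23 and the pathway genes from 5 to 72. The higher ends come from leaving out UMBO replicate 1, which leaves 1 UMBO library, assumed to vary like the vehicle libraries, and the 4 members called there were Stat2, Stat3, Stat6 and Socs3, where 18.3% of all genes were called. Over the left-out libraries the difference of the Socs3 to Stat3 log2 ratio ranged from 0.18 to 1.57, that of Stat5a to Stat5b from 0.31 to 1.53 and that of Socs1 to Irf1 from 0.03 to 0.67. Of the 12 Irf1 and interferon-gamma targets, 6 had an unadjusted p under 0.05 with no filter, where 10.1% of all genes did. Without vehicle replicate 2 the count was 9, against 11.6% of all genes, and it was 0 without vehicle replicate 1 or 3. Without vehicle replicate 2, 7 members had all UMBO values above all vehicle values, against 30.1% of all genes. Among the members and the pathway genes with the smallest p, the log2 fold changes that turned negative, each without UMBO replicate 2, ranged over the left-out libraries from -0.55 to 0.72 for Stat4, -0.27 to 3.20 for Socs1, -0.14 to 2.45 for Irf1, -0.57 to 2.11 for Ccl22, -0.04 to 0.61 for Ccnd2, -0.00387 to 1.94 for Nlrc5, -0.13 to 1.85 for Pim1, -0.20 to 1.66 for Psmb10, -0.18 to 3.16 for Psmb8 and -0.25 to 1.51 for Tbx21. Without replicate 2 of both groups 97 genes (0.404%) passed the adjusted p, 3 members and 43 pathway genes had an unadjusted p under 0.05 (10.6% of all genes), 7 members had UMBO above vehicle (37.4% of all genes), the median of the members was 0.30 and Stat4 was at -0.49. The cause was not tested.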
